A study of Mus musculus with 12 samples.

Results

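The urea cycle and the amino acid breakdown that feeds it were followed through 10 genes that mark periportal hepatocytes, the liver cells around the portal vein. The genes were chosen by name and function: Nags, Cps1, Otc, Ass1, Asl and Arg1 encode the enzymes of the cycle, Slc25a15 its ornithine carrier, and Hal, Sds and Gls2 enzymes that release ammonia from histidine, serine and glutamine. All 10 were among the 17007 genes listed, and all 10 were among the 14397 genes tested, those that reached 0.5 FPKM in 3 or more of the 12 libraries. FPKM relate the fragments of a gene to the length of its transcript and to library size, so levels can be set side by side between genes.

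The cycle turns toxic ammonia into urea, and in mammals it runs almost only in the liver. NAGS makes the activator of CPS1, and CPS1 and OTC work inside the mitochondrion, where they build citrulline from ammonia, bicarbonate and ornithine. ASS1, ASL and ARG1 work in the cytosol, where they release urea and give back the ornithine that SLC25A15 carries into the mitochondrion. Nitrogen that escapes the periportal cells is taken up by pericentral hepatocytes, which use it to make glutamine.

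Bulk tissue of 4 groups of 3 libraries was measured: normal livers of wild-type C57BL/6 mice, for which no treatment is given, and liver tumors of mice given vehicle, MLN0128 or everolimus. All 3 tumor groups were c-MYC/MCL1 tumors with the Rictor KO Tsc2 KO genotype, so that vehicle tumors carried both deletions too, and the normal livers carried neither the deletions nor the oncogenes nor the gavage. The tumors came from hydrodynamic tail vein injection of plasmids into C57BL/6J mice with floxed Rictor and Tsc2 alleles (Rictor fl/fl Tsc2 fl/fl), and the Cre recombinase was driven by the general CMV promoter and c-MYC by the EF1α promoter, neither of which is specific to hepatocytes. MLN0128 blocks the catalytic site of mTOR in both of its complexes, and everolimus, a relative of rapamycin, inhibits mTORC1. Both were given at 1 mg/kg per day, 6 days a week, over 3 weeks from day 6 after injection, and tissue was taken 3.7 weeks after injection according to the labels, whereas the text of the study gives 3 days of treatment for the RNA-Seq. Ages were not given in the sources used here. Nothing in the labels says that libraries of a group came from separate animals, so the p-values measure the spread between these libraries.

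Reads recovered from the FPKM numbered 17188553 to 25210616 per library, and the members were read from 314 times (Sds in vehicle replicate 2) to 56836 times (Cps1 in MLN0128 replicate 2). Of 8 hepatocyte markers, 7 were in the table, and their summed level ran from 82363 to 101426 FPKM in normal livers, whereas it was 4639 to 7088 in vehicle tumors, 4096 to 9141 in everolimus tumors and 2767 to 5361 in MLN0128 tumors, so the tumors kept hepatocyte RNA at a much lower level. MLN0128 replicates 1 and 2 held 191 and 155 FPKM of Xist and 0 FPKM of the Y-linked Ddx3y, Uty, Kdm5d and Eif2s3y, whereas the other 10 libraries held at most 0.0699 FPKM of Xist. Comparisons with MLN0128 therefore also set mice of different X and Y content against each other. Otc is X-linked. For members whose MLN0128 calls change without those 2 libraries, the differences without them are given below. For other genes the MLN0128 comparisons rest on all 3 libraries.

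RefSeq promoter windows on GRCm38.p6 were at hand for 5 of the 10 members, Nags, Otc, Ass1, Slc25a15 and Hal. The 250 bases before the start are shown, 5′ to 3′, for Otc, whose tumor level was among the most reduced, for Nags, whose level was among the least reduced, and for Hal, which held the most motifs. Capitals mark matches, on either strand, to TATAAA (the TATA box), to the CCAAT box, to CACGTG (the E-box that MYC and other factors bind), to TTGCNNAA (a core that C/EBP factors bind) and to CAAAGTC (a core that HNF4 binds).
Otc (chrX:10252055-10252304, plus strand): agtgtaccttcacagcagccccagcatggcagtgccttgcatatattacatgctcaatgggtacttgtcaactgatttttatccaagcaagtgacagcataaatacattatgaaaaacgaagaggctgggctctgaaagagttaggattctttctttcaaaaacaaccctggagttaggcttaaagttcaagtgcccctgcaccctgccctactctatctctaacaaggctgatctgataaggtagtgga
Nags (chr11:102145263-102145512, plus strand): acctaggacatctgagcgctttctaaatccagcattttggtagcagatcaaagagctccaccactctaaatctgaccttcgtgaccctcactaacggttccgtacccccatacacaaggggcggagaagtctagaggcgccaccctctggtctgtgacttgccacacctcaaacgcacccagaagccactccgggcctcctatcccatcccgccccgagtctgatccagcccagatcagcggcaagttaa
Hal (chr10:93488518-93488767, plus strand): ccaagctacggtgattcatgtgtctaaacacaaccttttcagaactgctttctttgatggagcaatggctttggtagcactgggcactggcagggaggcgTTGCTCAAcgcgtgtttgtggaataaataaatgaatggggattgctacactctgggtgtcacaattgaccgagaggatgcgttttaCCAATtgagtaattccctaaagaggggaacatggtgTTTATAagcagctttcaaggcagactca
Hal held a TATAAA match on the reverse strand at -28 from the start, a CCAAT at -64 and a TTGCNNAA at -150, whereas the Otc and Nags windows held none of the 5 motifs. CACGTG was found in Ass1, at -36 from the RefSeq start and past the GENCODE start of the gene, and at -77 in the second of the Slc25a15 windows, which lies inside the annotated gene. Over 32851 windows of this length, 12.4% held TATAAA, 33.8% CCAAT, 6.02% CACGTG, 9.56% TTGCNNAA and 3.84% CAAAGTC, so the matches found are not particular to these genes.

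The first question was how the genes stood in the tumors against normal liver. All 10 were lower in vehicle tumors, where 33.0% of the 14397 tested genes were lower and 36.0% higher, and in 9 of 10 every tumor library lay below every normal liver, as did 35.1% of tested genes. A gene was called where the adjusted p of the moderated limma test on log2(FPKM + 1) was below 0.05, with Benjamini-Hochberg adjustment over all tested genes. The median difference of the members was -1.73 on the log2 scale, against 0.06 over all tested genes. By the treat test of limma, which asks for more than a 1.5-fold change, 7 of 10 were lower (16.9% of tested genes), and the 3 that did not pass were Nags, Cps1 and Ass1. In bulk tissue, fewer hepatocytes and less RNA per hepatocyte cannot be told apart.

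The mitochondrial steps fell unequally. NAGS makes N-acetylglutamate, without which CPS1 is inactive, and its gene (ENSMUSG00000048217.11, chr11:102145513-102149477) was at 23.5, 23.1 and 15.2 FPKM in normal livers and 15.4, 8.76 and 13.1 in vehicle tumors. Nags was the member whose groups overlapped, since vehicle replicate 1 lay above normal liver replicate 3, and its log2 fold change was -0.69 (SE 0.227, adjusted p = 0.0167). Without normal liver replicate 1, normal liver replicate 2 or vehicle replicate 2 it no longer passed (-0.59, -0.60 and -0.48).

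CPS1 fixes ammonia in the committed step of the cycle, and its gene (ENSMUSG00000025991.8, chr1:67123026-67231259) was at 647, 633 and 848 FPKM in normal livers and 294, 339 and 269 in vehicle tumors. Every tumor held less than every normal liver, with a mean of 42.4% of the normal mean and a fitted log2 difference of -1.23 (SE 0.336, adjusted p = 0.00633). OTC joins carbamoyl phosphate to ornithine, and Otc (ENSMUSG00000031173.13, chrX:10252305-10321024) was at 272, 223 and 336 FPKM in normal livers and 27.6, 11.1 and 21.8 in tumors. The highest tumor value was far below the lowest normal one, the mean was 7.28% of the normal mean, and the log2 fold change was -3.78 (SE 0.491, adjusted p = 3.07e-05).

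SLC25A15 exchanges ornithine and citrulline across the inner mitochondrial membrane. Its gene (ENSMUSG00000031482.9, chr8:22375551-22398597) was at 92.0, 96.0 and 101 FPKM in normal livers and 32.7, 21.7 and 31.8 in vehicle tumors, with no overlap. The carrier thus stood at 29.8% of the normal mean, between Cps1 and Otc, with a fitted log2 difference of -1.73 (SE 0.206, adjusted p = 1.51e-05).

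The cytosolic enzymes ranged from Ass1, which with Nags was the least reduced, to Arg1, the most reduced. ASS1 joins citrulline and aspartate, and Ass1 (ENSMUSG00000076441.9, chr2:31470207-31520672) was at 1130, 1240 and 1150 FPKM in normal livers and 805, 611 and 709 in vehicle tumors. The groups did not overlap, but the difference, -0.74 (SE 0.305, adjusted p = 0.0487), sat at the edge of the threshold. It was lost when any of the 6 libraries of the comparison was left out, with values from -0.83 without vehicle replicate 1 to -0.63 without vehicle replicate 2 and of -0.76, -0.69 and -0.75 without normal liver replicates 1, 2 and 3 and -0.74 without vehicle replicate 3. The call was also lost without MLN0128 replicate 1 or any everolimus library, which share the estimate of the spread, with a pseudocount of 0.1 FPKM (adjusted p = 0.0520) and with no filter on low values (adjusted p = 0.0605).

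ASL splits argininosuccinate into arginine and fumarate, and Asl (ENSMUSG00000025533.15, chr5:130011258-130029247) was at 126, 133 and 179 FPKM in normal livers and 55.5, 37.3 and 48.7 in tumors. Without overlap, the tumor mean was 32.3% of the normal mean and the log2 fold change -1.61 (SE 0.248, adjusted p = 0.000118). ARG1 cleaves arginine into urea and ornithine and closes the cycle. Arg1 (ENSMUSG00000019987.9, chr10:24915221-24927484) was the most abundant member in normal livers, at 1640, 1420 and 1780 FPKM, and was at 112, 81.3 and 80.0 in vehicle tumors. Its mean fell to 5.65% of the normal mean, the largest fall among the members, with a fitted log2 difference of -4.14 (SE 0.428, adjusted p = 4.98e-06).

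Among the catabolic genes, HAL removes ammonia from histidine, and Hal (ENSMUSG00000020017.14, chr10:93488768-93519304) was at 38.3, 47.3 and 51.4 FPKM in normal livers and 14.5, 13.8 and 11.0 in vehicle tumors. Its groups were well apart, with a fitted log2 difference of -1.73 (SE 0.256, adjusted p = 9.02e-05). SDS deaminates serine to pyruvate, and Sds (ENSMUSG00000029597.14, chr5:120476526-120483932) was at 144, 132 and 186 FPKM in normal livers and 23.9, 8.79 and 17.6 in tumors. That was the third largest fall of the 10, -3.21 (SE 0.503, adjusted p = 0.000136), with the widest spread among vehicle tumors. GLS2, the liver glutaminase, releases ammonia from glutamine, and Gls2 (ENSMUSG00000044005.13, chr10:128194457-128210004) was at 128, 117 and 134 FPKM in normal livers and 33.6, 28.8 and 28.8 in tumors. Its libraries were tight within each group, and its log2 fold change was -2.02 (SE 0.181, adjusted p = 1.64e-06).

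**Figure D1:**
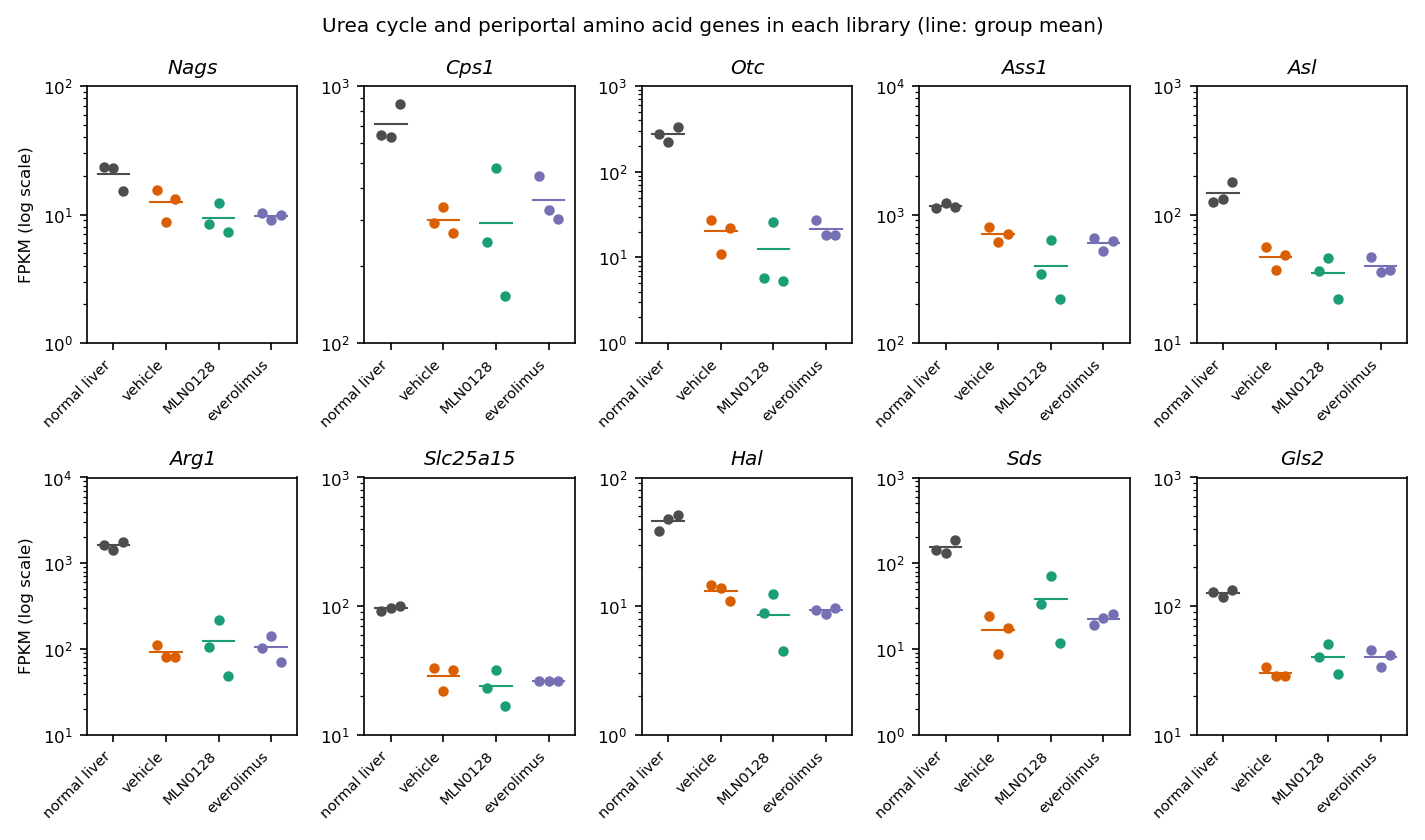
FPKM (log scale) of each of the 10 genes in the 12 libraries, with 1 point per library and a line at each group mean. Normal livers lie above all tumor libraries for 9 of 10 genes, the exception being Nags, and MLN0128 points are the most scattered, as for Otc (5.74, 26.2 and 5.26).

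The order of the genes by level differed between normal liver and tumor. In normal livers the means fell from Arg1 (1613 FPKM) through Ass1 (1173), Cps1 (709), Otc (277.0), Sds (154), Asl (146), Gls2 (126), Slc25a15 (96.3) and Hal (45.7) to Nags (20.6). Sds, Asl and Gls2 had overlapping ranges there, and the higher ranks were separate. Within each normal liver Sds lay above Gls2, whereas the place of Asl changed between libraries, so it is not resolved. In vehicle tumors Ass1 (708 FPKM) led, followed by Cps1 (301) and Arg1 (91.1), each apart from the next, then Asl (47.2), Gls2 (30.4), Slc25a15 (28.7), Otc (20.2), Sds (16.8), Hal (13.1) and Nags (12.4). From Gls2 down, the ranges of neighbours overlapped, though within each vehicle library Slc25a15 lay above Otc and Otc above Sds. Ass1, Cps1 and Arg1 were the top 3 by mean with both drugs too.

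Because that order and the ratio of 2 genes within a library do not depend on any scaling between libraries, they were read beside the fold changes. The FPKM of Arg1 over that of Ass1 was 1.15 to 1.55 in normal livers and 0.113 to 0.139 in vehicle tumors. Otc over Cps1 was 0.352 to 0.420 in normal livers and 0.0327 to 0.0939 in vehicle tumors. Both ratios lay apart between the groups. They set the most reduced members over less reduced ones, so they restate, free of scaling, that the cycle's genes did not fall in step. Of the summed FPKM of the 10 genes, which was 4064 to 4781 in normal livers and 1162 to 1414 with vehicle, Arg1 made up 34.9% to 38.7% and 6.50% to 7.92%, and Ass1 24.1% to 30.5% and 52.6% to 57.6%. The sum came to 4.38% to 5.15% of the summed hepatocyte markers in normal livers and 18.6% to 25.0% in vehicle tumors. In normal livers most of the marker sum was Alb. In vehicle tumors Alb stood at 2.29% of its normal mean, whereas the other 6 markers stood at 13.1% (Fgb) to 29.9% (Ambp).

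Cad and Sdsl, which do related work outside the cycle, were higher in vehicle tumors than in normal liver. CAD makes carbamoyl phosphate for pyrimidines in the cytosol, and Cad rose from 2.03, 2.45 and 1.49 FPKM to 21.3, 25.2 and 24.2 (3.05, SE 0.151, adjusted p = 2.21e-08). Its ratio to Cps1 was 0.00176 to 0.00387 in normal livers and 0.0724 to 0.0900 in vehicle tumors. Sdsl, a relative of Sds, was at 13.4, 11.1 and 15.0 FPKM in normal livers and 17.5, 16.9 and 16.8 in vehicle tumors (0.36, SE 0.143, adjusted p = 0.0409). Sdsl over Sds rose from between 0.0806 and 0.0931 to between 0.732 and 1.92, which largely restates the fall of Sds (-3.21).

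**Figure D2:**
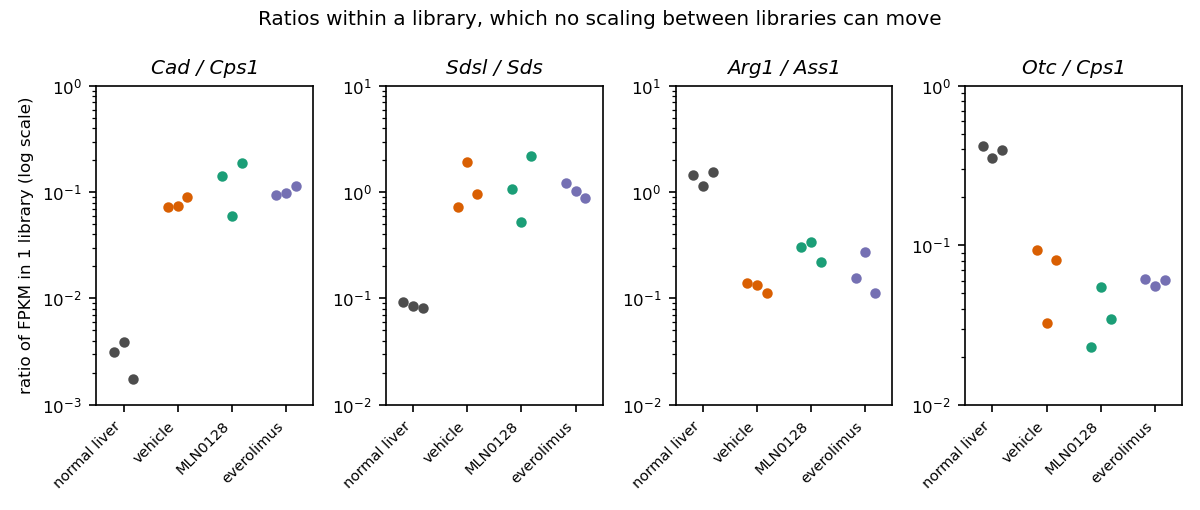
Ratio of the FPKM of 2 genes in the same library (log scale), 1 point per library, in the 4 groups. Cad over Cps1 and Sdsl over Sds lie higher, and Arg1 over Ass1 and Otc over Cps1 lower, in all 9 tumor libraries than in the 3 normal livers.

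The fold changes themselves did depend on scaling. The deposited FPKM carry factors between libraries beyond total reads, which were 0.585 to 0.595 for normal livers, 1.10 to 1.20 for everolimus, 1.12 to 1.14 for vehicle and 1.15 to 1.37 for MLN0128. With plain library totals the median of all tested genes moved from 0.06 to 0.62, and 7 of 10 members were lower in vehicle tumors (15.2% of tested genes), since Nags (0.18) and Ass1 (0.20) turned to the other side and Cps1 (-0.30, adjusted p = 0.371) no longer passed. With values rescaled to TPM the median of all genes was 1.00 and 6 of 10 were lower (11.7% of tested genes), with Nags at 0.44, Ass1 at 0.46, Cps1 at -0.03 and Asl at -0.43. Relative to the median of all genes, every member stayed below it with plain totals, from -3.83 for Arg1 to -0.42 for Ass1, and with TPM, from -3.95 to -0.54. For Arg1, Otc, Sds, Gls2, Slc25a15 and Hal the fall passed under each of the 4 scalings.

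**Figure D3:**
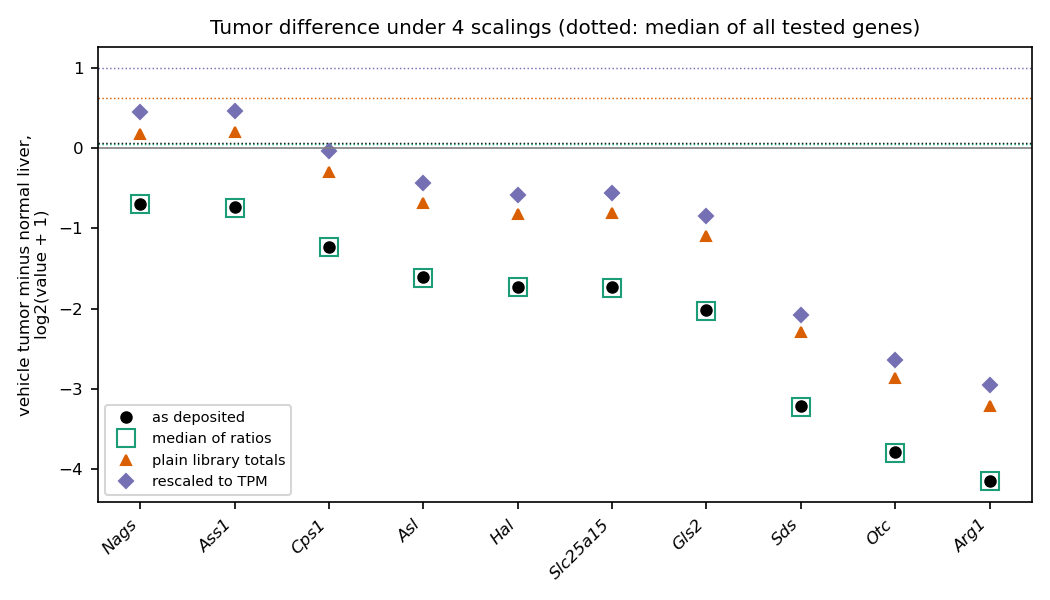
Difference between vehicle tumors and normal liver on the log2(value + 1) scale for each gene under 4 scalings, with the median of all tested genes as a dotted line of the same color. Points shift upwards together with plain library totals and TPM, Nags and Ass1 cross 0, and all 10 genes stay below the dotted line of their scaling.

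Whether the mTOR inhibitors changed these genes was asked against the same 3 vehicle libraries, which both comparisons share. With everolimus 0 of 10 members were called, higher or lower, and 0 had an unadjusted p under 0.05, where 3.78% of tested genes were higher and 6.05% lower by the same test. The median difference was 0.02, against 0.03 over all tested genes, and the adjusted p ran from 0.189 to 0.889. The 95% intervals of the differences together spanned -1.01 (the lower end for Hal) to 1.60 (the upper end for Sds) on the log2 scale. Changes within the interval of a gene are not excluded for that gene. For Gls2, the most precise, the interval was 0.00 to 0.79.

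Everolimus libraries differed most in Arg1, by 2.05-fold from the lowest to the highest. Arg1 was at 103, 143 and 69.8 FPKM, Ass1 at 656, 518 and 624, and Cps1 at 448, 328 and 305. Each of these ranges overlapped that of vehicle tumors. Otc was at 27.4, 18.3 and 18.4 FPKM, Slc25a15 at 26.1, 26.3 and 26.0, and Nags at 10.2, 9.09 and 9.90. The carrier varied by no more than 1.01-fold between the 3 libraries. Asl was at 46.5, 35.7 and 37.1 FPKM, Sds at 19.0, 23.2 and 25.3, and Gls2 at 45.9, 33.6 and 41.9. Hal, at 9.35, 8.68 and 9.72 FPKM, was the member whose 3 everolimus libraries all lay below all 3 vehicle libraries, as for 14.8% of tested genes, and its difference of -0.45 (SE 0.256, adjusted p = 0.286) did not pass.

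With MLN0128, 1 of 10 members was lower than with vehicle, Ass1, and 0 were higher, where 17.1% of tested genes were lower and 14.9% higher, and 2 of 10 had an unadjusted p under 0.05. Ass1 was at 345, 632 and 221 FPKM against 805, 611 and 709 with vehicle. MLN0128 replicate 2 lay within the vehicle range and the other 2 below it, and the difference was -0.95 (SE 0.305, adjusted p = 0.0335). The call was lost without vehicle replicate 1 (-0.85), vehicle replicate 3 (-0.94), MLN0128 replicate 1 (-0.91) or MLN0128 replicate 3 (-0.59), and over the alternatives its adjusted p ran from 0.00190, without MLN0128 replicate 2, to 1 by the treat test. The other gene with an unadjusted p under 0.05 was Hal, at 8.77, 12.4 and 4.50 FPKM, with a difference of -0.64 (SE 0.256, adjusted p = 0.0755). The median difference of the 10 genes was -0.33, against -0.01 over all tested genes.

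The spread among MLN0128 libraries was wide and ordered. Replicate 2 was the highest and replicate 3 the lowest of the 3 in 10 of 10 members, and replicate 3 was the lowest of all 12 libraries in 8 of 10. The ratio of the highest to the lowest library had a median of 2.81 over the members with MLN0128, with a range of 1.68 to 5.97, against 1.34 in normal livers, 1.44 with vehicle and 1.32 with everolimus. Otc was at 5.74, 26.2 and 5.26 FPKM, Arg1 at 106, 215 and 48.5, and Sds at 33.7, 70.5 and 11.8. In each of them replicate 2 exceeded replicate 3 several fold. Cps1 was at 248, 480 and 152 FPKM, Asl at 36.3, 46.3 and 22.2, and Gls2 at 40.3, 50.9 and 29.6. Slc25a15, at 23.2, 32.0 and 16.7 FPKM, and Nags, at 8.50, 12.2 and 7.26, kept the same order with less spread. The summed hepatocyte markers followed it as well, at 3557, 5361 and 2767 FPKM in replicates 1, 2 and 3. Replicate 3 also carried the largest scaling factor, 1.37, and with plain library totals replicate 2 was still the highest and replicate 3 still the lowest of the 3 in 10 of 10 members. The part of hepatocyte content in this order was not tested.

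Calls with MLN0128 moved with these libraries. Without replicate 2, 3 members were lower than with vehicle (15.7% of tested genes), Ass1, Otc (-1.62, adjusted p = 0.00503) and Hal (-0.94, adjusted p = 0.0112). Without replicate 3, 2 were higher, a share close to the 15.9% of all tested genes, Sds (1.59, adjusted p = 0.00934) and Gls2 (0.56, adjusted p = 0.0205), and 0 were lower. Without both replicates 1 and 2, which differ from vehicle in X and Y content and leave 1 library assumed to vary like the other groups, 5 were lower (7.50% of tested genes), Cps1, Otc, Ass1, Asl and Hal. The differences without both were -0.97 for Cps1, -1.67 for Otc and Ass1, -1.04 for Asl and -1.35 for Hal. Gls2 was also higher with MLN0128 than with vehicle under plain library totals (0.51, adjusted p = 0.0158) and TPM (0.61, adjusted p = 0.00351). These scalings shifted the median of all genes by 0.10 and 0.20. As deposited, Gls2 was at 0.36 (adjusted p = 0.145).

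Within libraries, Arg1 over Ass1 was 0.219 to 0.340 with MLN0128, above the 0.113 to 0.139 of every vehicle tumor, and 0.112 to 0.276 with everolimus. Ass1 made up 40.1% to 42.6% of the summed members with MLN0128, below its share in every vehicle tumor. Cad over Cps1 (0.0600 to 0.188) and Otc over Cps1 (0.0231 to 0.0546) overlapped their ranges with vehicle. These ratios were picked out after their values were seen and were not tested.

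**Figure D4:**
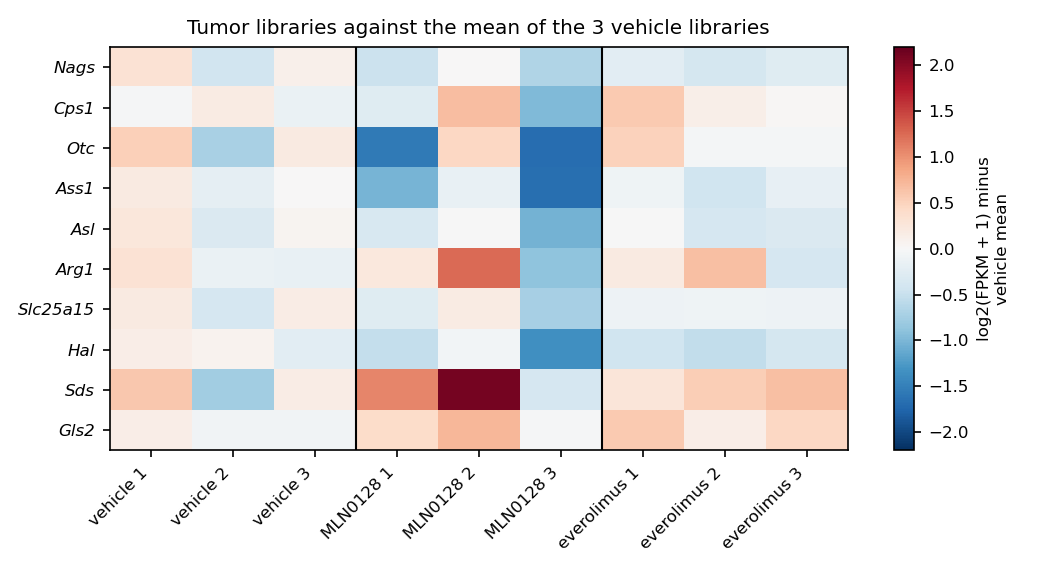
Each tumor library's log2(FPKM + 1) minus the mean of the 3 vehicle libraries, red above and blue below, for the 10 genes. MLN0128 replicate 3 is below the vehicle mean in 10 of 10 genes, from -0.03 for Gls2 to -1.67 for Otc and Ass1, whereas MLN0128 replicate 2 is at 2.11 for Sds and 1.25 for Arg1.

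Set directly against each other at the same dose and duration, MLN0128 and everolimus differed in 0 of 10 members after adjustment, where 3.99% of tested genes were higher and 5.54% lower with MLN0128, and 1 of 10 at an unadjusted p under 0.05. That gene was Ass1, 0.71 lower on the log2 scale with MLN0128 (95% interval -1.38 to -0.04, adjusted p = 0.16). Otc came next, at -1.07 with an interval of -2.14 to 0.00 (adjusted p = 0.187). The interval was narrowest for Gls2, from -0.42 to 0.37, and reached 1.54 upwards for Sds, so the data do not show that the drugs act alike on these genes. Without MLN0128 replicate 2, Otc (-1.76, adjusted p = 0.0142) and Ass1 (-1.11, adjusted p = 0.0176) were lower with MLN0128, as were 4.53% of tested genes. Leaving out both MLN0128 replicates 1 and 2, which leaves 1 library with MLN0128, put the difference of Ass1 at -1.43.

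**Figure D5:**
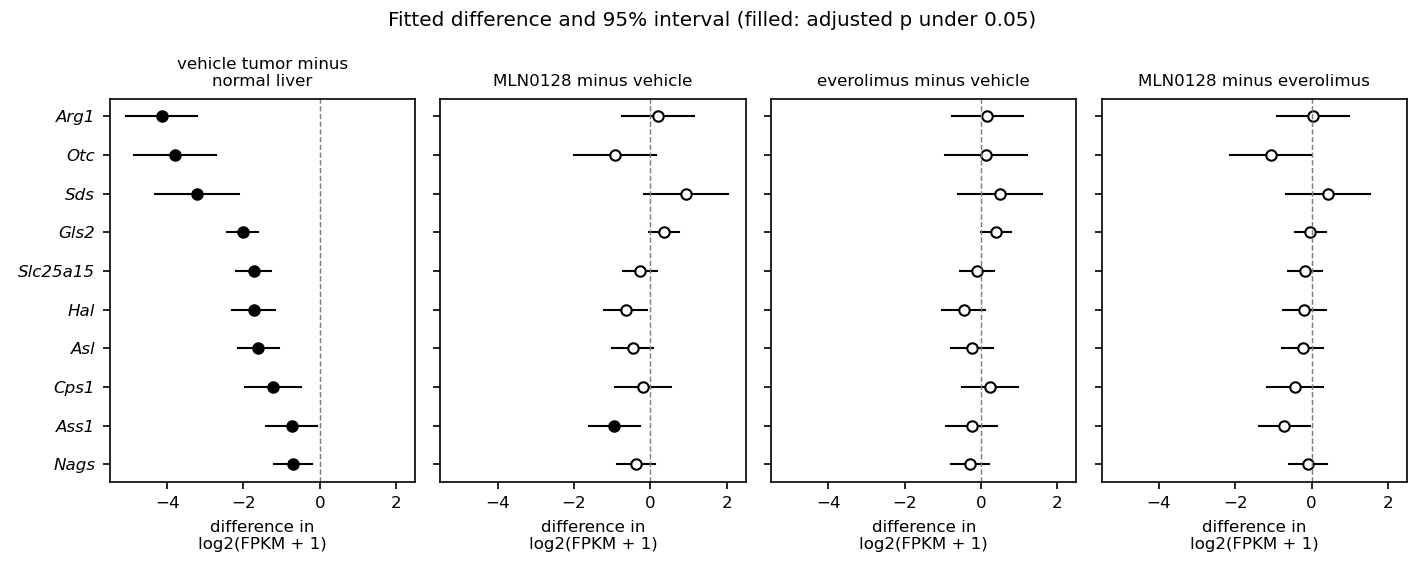
Fitted difference in log2(FPKM + 1) with its 95% interval for the 10 genes in 4 comparisons of 3 against 3 libraries, filled where the adjusted p is under 0.05. All 10 points are filled and negative against normal liver, Ass1 alone is filled for MLN0128 against vehicle, and none for everolimus or between the drugs.

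Against normal liver, all 10 members were lower with MLN0128 (35.5% of tested genes lower, 37.1% higher) and all 10 with everolimus (34.3% lower, 35.9% higher), and in each of the 10 every treated tumor lay below every normal liver, as for 36.3% of tested genes with MLN0128 and 35.4% with everolimus. Otc, at -4.71, and Arg1, at -3.94, had the largest differences with MLN0128, as did Arg1 (-3.98) and Otc (-3.64) with everolimus. Nags had the smallest with MLN0128 (-1.07) and Ass1 with everolimus (-0.97). Without normal liver replicate 3, everolimus replicate 2 or everolimus replicate 3, the fall of Cps1 with everolimus no longer passed (-0.85, -0.93 and -0.87). Plain library totals ended the calls of Nags and Cps1 with both drugs and of Ass1 with everolimus. With TPM, 5 of 10 were lower with MLN0128 (11.3% of tested genes), Nags and Cps1 turned to the other side with both drugs, and Ass1 did so with everolimus. These comparisons share the normal livers with the one above.

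The other genes of nitrogen metabolism were read from lists by function that hold 71 genes, of which 67 were tested. In vehicle tumors 54 were lower than in normal liver (80.6%, against 33.0% of all tested genes) and 6 higher (8.96%, against 36.0%). Of 12 genes that feed the cycle with ammonia, aspartate and bicarbonate, 10 were lower and 0 higher, with a median of -1.57, led by Car5a (-6.05), the mitochondrial carbonic anhydrase that supplies bicarbonate to CPS1, the urea and glycerol channel gene Aqp9 (-4.35) and the glutamine transporter gene Slc38a3 (-2.95). Car5a was at 82.3, 90.1 and 82.2 FPKM in normal livers and 0.209, 0.142 and 0.577 in vehicle tumors, a much larger fall than that of Cps1. With TPM 4 of the 12 were lower and 2 higher, where 1689 of the 14397 tested genes were lower and 9651 higher.

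Histidine breakdown past HAL fell as a whole, with 3 of 3 genes lower: Uroc1 (-3.03), Amdhd1 (-2.09) and Ftcd (-1.96). All 11 genes of aromatic amino acid breakdown were lower, with a median of -3.26, led by the tryptophan genes Kmo (-4.94) and Tdo2 (-4.24) and the tyrosine gene Hgd (-3.41). Both lists kept every call with plain library totals and TPM. Of 13 other amino acid breakdown genes, 8 were lower, led by the glyoxylate gene Agxt (-6.27), the homocysteine methylation gene Bhmt (-5.11) and the lysine gene Aass (-4.07), and 2 were higher, the glycine cleavage gene Gldc (1.91) and Sdsl (0.36). With TPM 5 of these 13 were lower and 6 higher, beside 1689 lower and 9651 higher of the 14397 tested genes.

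Of 5 genes of pericentral nitrogen scavenging, 4 were lower, among them the glutamate transporter gene Slc1a2 (-3.79), the ornithine aminotransferase gene Oat (-3.65) and Glul (-2.38), the glutamine synthetase gene, and the neutral amino acid transporter gene Slc1a4 was higher (2.67). Both the periportal and the pericentral genes of nitrogen handling were thus low in vehicle tumors. Of 8 periportal marker genes, 6 were lower, led by Cyp2f2 (-6.41), Pck1 (-6.32) and Hsd17b6 (-5.66), and Cdh1 was higher (1.35). In the list of isozymes and other users of the same substrates, the polyamine gene Odc1 was higher (2.09) beside Cad, and Agmat (-1.78) and the creatine gene Gatm (-1.63) were lower, of which Gatm lost its call with plain totals (-0.84) and TPM (-0.72). Arg2 and Slc25a2 were not analysed here. Of 11 regulators, 10 were lower, with the largest differences for Cebpa (-2.99), a factor that drives urea cycle genes, Ppara (-2.10) and Sirt3 (-1.76). With plain totals 6 of the 11 were lower and 1 higher, where 2185 of the 14397 tested genes were lower and 8819 higher.

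Among the same 67 genes, 4 were higher and 3 lower with everolimus than with vehicle (5.97% and 4.48%, against 3.78% and 6.05% of all tested genes), and 5 were higher and 14 lower with MLN0128 (7.46% and 20.9%, against 14.9% and 17.1%). The share lower with MLN0128 was close to that of all genes, and the share higher was below it. In the direct comparison 9 were lower (13.4%, against 5.54%) and 0 higher with MLN0128. Among the 9 were Cth (-1.78), Slc1a4 (-1.64), Gldc (-1.05), Cdh1 (-0.87), Gcsh (-0.81), Odc1 (-0.69) and Slc25a22 (-0.57). Of these, Cdh1, Odc1 and Slc25a22 lost their calls with TPM. When only these 2 groups were fitted, 1 of the 14397 tested genes was higher and 5 were lower with MLN0128. Tat, the tyrosine aminotransferase gene, was at 14.0, 12.7 and 8.62 FPKM with MLN0128 and 14.2, 56.8 and 32.3 with everolimus, against 150, 75.4 and 185 with vehicle, and was lower with both (-3.36, adjusted p = 0.000525, and -2.07, adjusted p = 0.0191). Gpt2, an alanine aminotransferase gene, was lower with both too (-1.18 and -0.78). Lower with MLN0128 were also Cth (-2.12), Gldc (-1.32) and Cbs (-0.89) of sulfur and glycine metabolism, Got1 (-0.63) and Glud1 (-0.43) of glutamate metabolism, and Slc1a4 (-1.97). The polyamine gene Odc1 (-0.66) and the periportal marker gene Cdh1 (-0.70) were lower as well. Glud1 lost its call with plain library totals and TPM, and Got1, Odc1 and Cdh1 with TPM. Sdsl (0.90) and Agxt (1.12) were higher with MLN0128, as were the regulators Cebpa (0.80), Sirt5 (0.66), which activates CPS1, and Nr3c1 (0.46), whereas Cebpb (-1.03) and Klf15 (-0.78) were lower. With everolimus, Gatm (4.19), Car5a (0.94), Cad (0.60) and Nr3c1 (0.52) were higher, of which Cad lost its call with TPM (adjusted p = 0.0605). Car5a remained at 1.19, 2.47 and 1.02 FPKM with everolimus, far below normal liver.

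Markers of other cell types were read beside these results. Their sums are of the deposited FPKM, so their differences from normal liver depend on the factors between libraries given above. Summed macrophage markers (8 of 8 in the table) were highest in normal livers (259 to 325 FPKM) and lower in vehicle (94.0 to 148), everolimus (72.0 to 180) and MLN0128 tumors (53.5 to 101). In vehicle tumors 5 of the 8 were lower than in normal liver and 1 higher, Cd68 (2.31, adjusted p = 1.56e-05), which was lower with MLN0128 (-1.60) and everolimus (-1.56) than with vehicle. Of the 5 lower, Adgre1 (-0.47) and Csf1r (-0.45) lost their calls with plain library totals, and Adgre1 (-0.30), Csf1r (-0.25) and Cd5l (-0.65) with TPM. Macrophages can express Arg1. Among everolimus libraries Arg1, the macrophage sum (72.0, 180 and 85.9 FPKM) and the hepatocyte sum (4318, 9141 and 4096 FPKM) were all highest in replicate 2. The hepatocyte sum had the whole order of Arg1, and so had the cholangiocyte sum (20.1, 61.8 and 17.2 FPKM) and the erythroid sum (2.17, 2.49 and 1.70 FPKM). The part of any cell type in Arg1 was not tested. The 2 kidney proximal tubule markers in the table, a tissue that also expresses Ass1 and Asl, summed to at most 0.618 FPKM in any library. Lymphocyte markers (6 of 7 in the table) summed to at most 2.34 FPKM, endothelial markers (6 of 6) to 26.8 to 35.7 FPKM in normal livers and 12.7 to 19.3 with vehicle, and stellate cell and fibroblast markers (7 of 7) to 66.0 to 94.2 and 25.8 to 60.0. Within that last list the collagen genes Col1a1 (2.98), Col1a2 and Col3a1 (1.30) were higher in vehicle tumors and Dcn, Lrat, Reln and Lum lower, Lum without a call under TPM. Of the endothelial genes lower in vehicle tumors, Stab2 lost its call with TPM (-0.43). Cholangiocyte markers (5 of 5) summed to 40.2 to 43.6 FPKM in normal livers, 36.8 to 92.5 with vehicle, 17.2 to 61.8 with everolimus and 10.3 to 28.1 with MLN0128. The sum was mostly Spp1 in normal livers, and Krt19 (4.13), Epcam and Sox9 (1.34) were higher in vehicle tumors and lower with both drugs than with vehicle, Krt19 by -4.05 with MLN0128 and -4.04 with everolimus. Neutrophil markers (4 of 4) summed to 3.26 to 17.9 FPKM in normal livers and 4.17 to 5.04 with vehicle, and erythroid markers (2 of 3) to 65.4 to 75.4 and 0.884 to 1.52.

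Across the 9 tumor libraries, which include 3 treatments and share their scaling, the genes whose log2(FPKM + 1) most resembled each member were described by Pearson's r. They are the highest among all tested genes outside the members, so their high r comes in part from that choice. Shared regulation was not tested. For Cps1 they were Tmem150a (0.97) and Hadhb (0.95), for Otc Mapkapk5 (0.99) and Capn10 (0.97), for Ass1 Apoo (0.97) and Apoa2 (0.97), and for Asl Gpd1 (0.98) and Osbpl1a (0.97). Gpd1 (0.96) was also the most alike for Slc25a15, before AI182371 (0.95). For Arg1 they were Pccb (0.96) and Esrp2 (0.95), for Nags Sult1d1 (0.97) and Atg3 (0.96), for Hal Zranb1 (0.94) and Vamp7 (0.93), and for Sds Oaf (0.97) and Saa4 (0.96). Gls2 was most like Rpl23a-ps3 (0.99), a pseudogene that may share reads with its parent gene, and Man2a2 (0.98). Among the members themselves, Ass1 resembled Asl (0.91), Otc (0.89) and Hal (0.88) more than Sds (0.20) or Gls2 (0.20), and Sds resembled Gls2 (0.79) and Arg1 (0.77).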

How the data were processed

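Whole-tissue RNA-Seq of 12 libraries was used in 4 groups of 3, as the labels give them. The deposited values are the authors' FPKM, linear and rounded to 3 significant digits: libraries were prepared and sequenced by Novogene, and the authors assigned reads to Ensembl genes, which they mapped to Entrez identifiers and named with org.Mm.eg.db. The submitters' processing notes name GRCm38 and FastQC 0.11.7. The aligner, the counting tool and the gene lengths behind the FPKM are not given in the sources used here, nor is the strand setting, so that reads of overlapping genes cannot be told apart. The labels name polyA capture or rRNA removal without saying which was used. The authors called genes with edgeR's glmTreat.

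Genes that reached 0.5 FPKM in 3 or more libraries (14397 of 17007) were tested on log2(FPKM + 1) with limma 3.58.1 in R 4.3.3, in 1 model of the 12 libraries with 4 group means, an intensity trend and 8 residual degrees of freedom, with Benjamini-Hochberg adjustment over all tested genes. A fold change on this scale understates the change of low genes. A gene was called at an adjusted p under 0.05, and the treat test of limma for more than a 1.5-fold change was given beside it. Gene positions and exon lengths came from GENCODE M21 on GRCm38. FPKM multiplied by exon length fell within 0.1 of a whole read for 98.2% to 98.8% of values under 20 reads, against 20.0% by chance, which gave the reads per library, the factors between libraries and the limma-voom alternative. Intervals on fitted differences are 95% and rest on the spread between libraries.

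The 10 genes, the lists and the tests were chosen with earlier results of these data known. All 10 are named. For vehicle tumors against normal liver, each list by function has up to 3 called genes named per direction, those with the largest difference. The genes set beside Cps1 and Sds stand apart from this rule. In the other comparisons not every gene that the rule picks is named. For likeness, the 2 tested genes with the highest r per member are named. Same-numbered libraries did not deviate together (correlations of deviations from group means from -0.289 to 0.148), so numbers were not taken as pairs. Each library was left out in turn, and the other alternatives were treat, voom, a replicate block, fits of only the groups compared, and changes of scaling, filter, pseudocount and prior. Scripts were tested on simulated data. 1 further gene of the lists is not reported here. Python packages were pandas 2.3.3 and matplotlib 3.10.9.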

Additional observations from a re-analysis of the deposited data

How the results depend on the processing

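The 10 falls in vehicle tumors kept their direction under all alternatives run except for Nags and Ass1 with other scalings. With TPM, 6 members were lower in vehicle tumors and 5 with MLN0128 than in normal liver. TPM turned Nags (0.44) and Ass1 (0.46) in vehicle tumors, Nags (0.28) and Cps1 (0.020) with MLN0128, and Nags (0.13), Cps1 (0.20) and Ass1 (0.21) with everolimus, and plain library totals turned Nags (0.18) and Ass1 (0.20) in vehicle tumors. In vehicle tumors against normal liver, TPM shifted the median of all genes by 0.94 and plain totals by 0.56, and which scaling is right was not tested.

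For MLN0128 against vehicle, the 1 lower member became 0 when only the 2 groups were fitted, 0 with the replicate block, 0 by treat, and 0 to 3 with 1 library left out. The 0 higher became 1 with TPM, 1 with plain totals and 0 to 2 with 1 library left out. Between the drugs, the 0 lower became 0 to 2 with 1 library left out. The replicate block, which could not be taken as a pairing, left 9 members lower in vehicle tumors.

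Signs also turned for differences that were not called. With TPM these were Cps1 (0.051) for MLN0128 against vehicle and Nags (0.15), Asl (0.012), Slc25a15 (0.077), Hal (0.025) and Gls2 (0.22) between the drugs, where plain totals gave Nags 0.044 and Gls2 0.11. Without MLN0128 replicates 1 and 2, Arg1 (-0.88), Sds (-0.37) and Gls2 (-0.034) turned against vehicle and Arg1 (-1.04) and Sds (-0.87) against everolimus. With 1 library left out, MLN0128 against vehicle ran from -0.62 to 0.20 for Cps1 and -0.32 to 0.74 for Arg1, and everolimus against vehicle from -0.22 to 0.40 for Otc and -0.085 to 0.43 for Arg1. Between the drugs it ran from -0.28 to 0.063 for Nags, -0.46 to 0.053 for Asl, -0.49 to 0.58 for Arg1, -0.39 to 0.059 for Slc25a15, -0.48 to 0.16 for Hal, -0.15 to 1.09 for Sds and -0.21 to 0.17 for Gls2. The cause of these changes was not tested. The least read member had 314 reads in a library, and with 3 libraries a group the intervals rest on the spread between libraries.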
